A study of Bos grunniens with 6 samples.

Results

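Narrow 5' UTR m6A peaks are stretches of at most 1000 bp that MeRIP-seq of cattle-yak testis placed in the 5' UTR class of the peak annotation. They were taken as the listed peaks with this class and this width, and 601 of 16186 peaks met both criteria (3.71%). These peaks lay on 542 of the 8986 genes with any peak (6.03%) and made up 7.46% of the 8059 peaks of at most 1000 bp (95% interval 6.90% to 8.05%) and 42.1% of the 1427 peaks in the 5' UTR class.

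In MeRIP-seq, fragmented RNA is sequenced before (input library) and after (IP library) enrichment with an m6A antibody, and stretches richer in the IP are called as peaks. The samples were testes removed by castration from 3 healthy 5-year-old cattle-yaks (TES5, TES6 and TES7), hybrids of yak and cattle whose males are sterile, and each animal gave 1 IP and 1 input library from poly(A) RNA, 6 libraries in all. All 3 animals belonged to 1 group without a treatment. The peaks form 1 list for the group, without scores or enrichment values and not split by animal, so that neither the height of a peak nor its spread between animals can be given.

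N6-methyladenosine is written into mRNA by a methyltransferase complex built around METTL3 and METTL14, is removed by FTO and ALKBH5, and is bound by reader proteins of the YTH family. It is best known from long internal exons and from the surroundings of the stop codon, while the same mark in the 5' UTR has been linked to translation that starts without the usual cap-binding step. Antibodies against m6A also bind N6,2'-O-dimethyladenosine, a base that can stand next to the cap at the very first position of an mRNA, and a peak that covers the first base cannot tell these marks apart.

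The input libraries held marker transcripts of somatic cells, spermatogonia and spermatocytes of the testis. Mean FPKM values, which scale reads by transcript length and library size, were 27.5 ± 0.807 (SD, n = 3, here and below) for *SOX9* and 29.6 ± 4.94 for *WT1* (Sertoli cells), 107 ± 5.95 for *STAR* (Leydig cells) and 237 ± 14.7 for *ACTA2* (peritubular myoid cells). Spermatogonial markers included *GFRA1* at 0.790 ± 0.193 and *ZBTB16* at 8.85 ± 2.29, identifiers of spermatocyte markers ran from 0 for one of *SYCP2* through 5.44 ± 1.10 for *SYCP1* to 20.7 ± 3.30 for *SYCP3*, and the immune marker *PTPRC* stood at 4.83 ± 1.04. Gene symbols were available only for genes with a peak, and no spermatid marker of the list used was among them. None of the marker genes matched carried a narrow 5' UTR peak. They are few and only 6.03% of all genes with a peak carried one, so nothing is read from this. In whole tissue, fewer cells of a type and less RNA per cell cannot be told apart.

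The narrow 5' UTR peaks crowded around the start of the transcript listed for them, but a sizeable share lay far downstream. The distance column was 0, meaning that the peak touched the first base, for 169 of 601 peaks (28.1%, 95% Wilson interval 24.7% to 31.8%), and 345 (57.4%) lay within 300 bp. A further 149 (24.8%, 21.5% to 28.4%) lay over 1000 bp from the start, 91 of them over 10000 bp. The intervals cover counting error only, since peaks are not replicates. The centre of the peak was in the first 10% of the transcript's genomic span, or before it, for 449 peaks (74.7%) and in the last 10% for 9 peaks. The class and the listed transcript stand in separate columns, so a distant peak may lie in the 5' UTR of a shorter transcript of the same gene or far along a 5' UTR split by introns, and these cannot be told apart without the annotation.

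**Figure D1:**
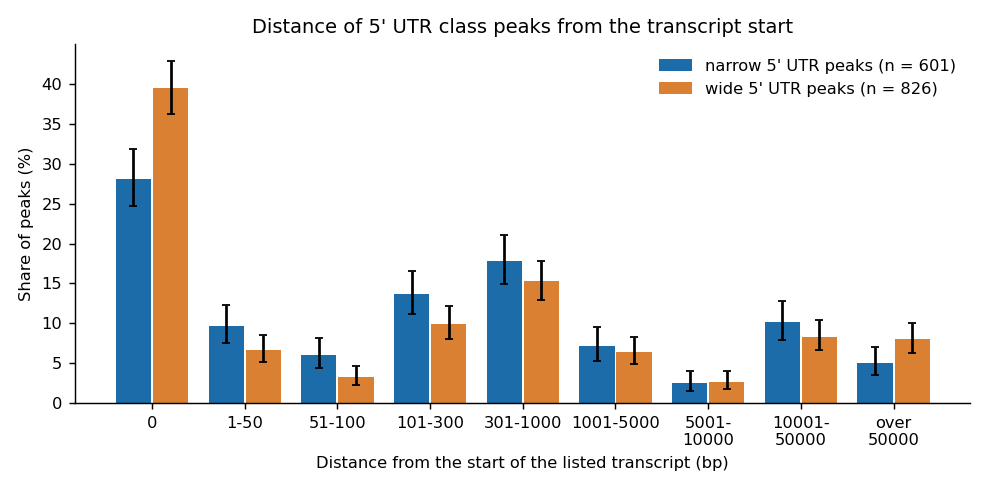
Share of narrow (n = 601) and wide (over 1000 bp, n = 826) 5' UTR class peaks, in percent, by distance from the start of the listed transcript in bp, with bars for the 95% Wilson interval. Of the narrow peaks 28.1% reached the start against 39.5% of the wide peaks, while 24.8% and 25.4% lay over 1000 bp away.

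Wide peaks of the same class reached the start more often. The share at distance 0 was 39.5% (36.2% to 42.8%) among the 826 wide 5' UTR peaks, which put the narrow peaks 11.3 percentage points lower (difference -11.3, Newcombe 95% interval -16.2 to -6.39). A wider interval covers more bases, and its part in this difference was not tested. The share over 1000 bp away was 25.4% for wide peaks, with a difference of -0.632 points and an interval from -5.13 to 3.96.

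Among the 169 peaks that reached the start, 97 began exactly on the first base of the listed transcript (16.1% of all 601, 13.4% to 19.3%) and 72 began upstream of it (12.0%). Exact starts made up 12.1% of the wide 5' UTR peaks, 4.03 points fewer (0.401 to 7.80). Peaks that began inside the transcript often did so at a multiple of 50 bp from the first base, as given below. An exact start falls on the same steps, and their part in the exact starts was not tested. *BRD3*, a reader of acetylated histones, is an example of an exact start, with a peak of 297 bp on chromosome 9 from 14491777 to 14492073 whose right edge was the first base of the minus-strand transcript. *CNOT7*, a deadenylase of the CCR4-NOT complex, had one of 150 bp on chromosome 28 from 35675343 to 35675492. *PDIA3*, a disulfide isomerase of the endoplasmic reticulum, is an example of a peak that began upstream, on chromosome 17 from 59513335 to 59513531, while its listed transcript starts at 59513521. Whether such peaks belong to transcripts that begin upstream of the listed start was not tested.

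A peak far from the start needs a listed transcript at least as long as its distance, so the choice by distance partly sets the spans given here. The peak of *F9*, which encodes coagulation factor IX, was 538229 bp from the start, the largest distance of any member. Whether the listed transcript is a correct model of this gene was not tested. The peak of *SYNE2*, which encodes a giant protein linking the nucleus to the cytoskeleton, covered 201 bp on chromosome 11 from 65686109 to 65686309 and was 129473 bp from the start of a transcript that begins at 65556636. *HNRNPAB*, a protein that packages nascent RNA and the most abundant gene with a distant peak, had one of 375 bp on chromosome 8 from 42452837 to 42453211, 19255 bp downstream. The listed transcripts of the 149 distant peaks had a median genomic span of 60655 bp, against 31998 bp for the 283 peaks at 1 to 1000 bp and 21712 bp for the 169 peaks that reached the start. Of the distant peaks, 56 had their centre past the midpoint of the span. Median widths were 250 bp, 249 bp and 334 bp in the same order.

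The width of the members, which the rule bounded only from above, was 251 bp at the median, with 144 bp the lowest and 996 bp the highest, and the middle part between the quartiles reached from 198 bp to 449 bp. The narrowest were on *NHSL2* (144 bp), *DIO2* (145 bp), the deiodinase that activates thyroid hormone, and *PPP1CA* (146 bp), a catalytic subunit of protein phosphatase 1. Just inside the limit lay the peaks of *DCLRE1A* (992 bp), *PEX7* (993 bp) and *PDE3B* (996 bp), and just outside it those of *PIP5K1C* (1015 bp), *LRATD2* (1019 bp) and *ANAPC2* (1022 bp). Each step between these neighbours was small beside the range of widths.

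Widths fell on steps of 50 bp. Within 2 bp of a multiple of 50 lay 368 of 601 widths (61.2%, 57.3% to 65.0%), where evenly spread widths would give 10%. The commonest steps were 150 bp with 115 peaks, 200 bp with 97 and 250 bp with 44. Narrow 3' UTR peaks fell on the steps in 67.0% (difference -5.74 points, -10.1 to -1.46) and narrow exon peaks in 55.0% (6.20 points, 2.02 to 10.2), so the stepping was present in each of these narrow classes. The upstream edge also followed the steps, in 154 of the 283 peaks (54.4%) that began 1 to 1000 bp inside the listed transcript. The peaks of *SP8*, a developmental transcription factor, and of *KAT6A*, a histone acetyltransferase, began 149 and 150 bp downstream of the first base, those of *DUSP16* and *PRKAA2* began 50 bp downstream, and those of *KDM1A* and *EEF1AKMT1* began 100 bp downstream. Edges are therefore placed to about the length of a step and not to the base.

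**Figure D2:**
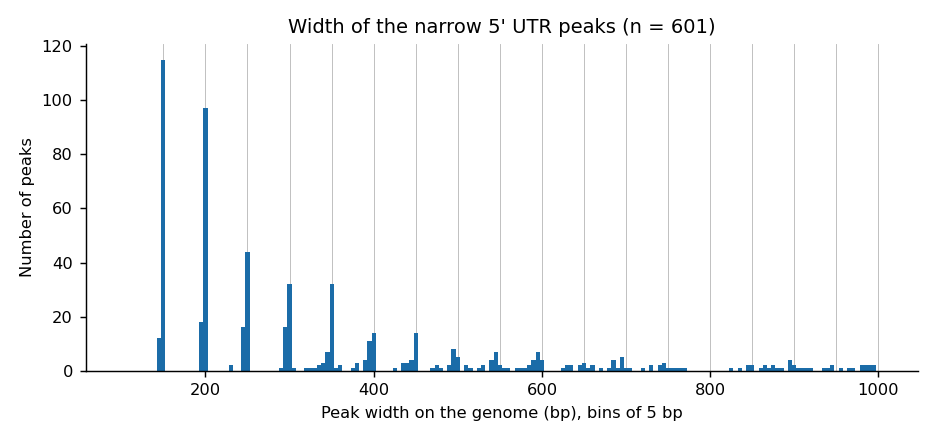
Number of narrow 5' UTR peaks (n = 601) by width on the genome in bp, in bins of 5 bp, with grey lines at multiples of 50 bp. The bars pile up at the lines, with 115 peaks within 2 bp of 150 bp and 97 within 2 bp of 200 bp.

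Most genes carried a single narrow 5' UTR peak. Of 542 genes, 493 (91.0%) had 1, 42 had 2, 5 had 3, 1 had 4 and 1 had 5. *PRKAG1*, the gamma-1 regulatory subunit of the energy sensor AMPK, had the most, and its 5 peaks on chromosome 5 between 76640351 and 76651587 lay 0, 3381, 4573, 5518 and 10590 bp from the start. *HIVEP1*, a large zinc finger protein that binds enhancers, had 4 peaks that sat together on chromosome 24 between 48389529 and 48394208, from 107955 to 112186 bp downstream of the listed start. The 3 peaks of *CEP192*, a scaffold of the centrosome, also lay together, 25848 to 33524 bp from the start. By contrast, the 3 peaks of *SNRNP25*, a protein of the minor spliceosome, lay within 578 bp of the start.

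Repeated peaks of a gene were not always separate stretches. In all, 60 members (9.98%) overlapped another listed peak of the same gene, in each case one of the 5' UTR class, and 24 of these lay wholly inside it. Another 8 overlapped a peak of another gene. In *DCLRE1A*, a nuclease that repairs DNA crosslinks, the peak of 348 bp from 37137298 to 37137645 on chromosome 25 lay inside the peak of 992 bp from 37137294 to 37138285. In *MRPL37*, a mitochondrial ribosomal protein, a peak of 147 bp lay inside one of 350 bp in the same way. Both *DCLRE1A* peaks also lay wholly inside the opposite-strand gene *NHLRC2*, so position does not ascribe them to *DCLRE1A* alone. *NHLRC2* was at 3.46, 3.78 and 4.94 FPKM in TES5, TES6 and TES7, and *DCLRE1A* at 3.21, 3.26 and 2.95. After overlapping members were merged with each other, and not with wide 5' UTR peaks, 581 stretches remained.

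Some of the narrow 5' UTR peaks could not be ascribed to 1 gene by position. Of 601 peaks, 60 (9.98%, 7.83% to 12.6%) overlapped the listed transcript of another gene identifier, 25 on the same strand and 35 on the opposite strand. This share was 3.48% for narrow 3' UTR peaks (difference 6.50 points, 4.19 to 9.24), 1.60% for narrow exon peaks (8.38 points, 6.20 to 11.1) and 7.75% for wide 5' UTR peaks (2.24 points, -0.717 to 5.35). Only genes with a peak have a listed transcript, so these shares are lower bounds. The overlap was concentrated at the start, with 37 of 169 peaks that reached it (21.9%, 16.3% to 28.7%), 12 of 283 at 1 to 1000 bp (4.24%, 2.44% to 7.26%) and 11 of 149 beyond (7.38%, 4.17% to 12.7%). The peak list gives the strand of the gene and not of the reads, so an opposite-strand neighbour cannot be set aside.

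In 16 of the 60 cases the other identifier had the same symbol, which left 44 peaks (7.32%) that overlapped a gene of another name. *ID1*, an inhibitor of differentiation, *UNG*, which removes uracil from DNA, *TSC2* and *UBE2M* each overlapped a second identifier of their own symbol. The other gene was the more highly expressed in all 3 animals for 33 of the 60 peaks (55.0%, 42.5% to 66.9%), and the gene to which the peak was assigned was the higher for 24 (40.0%). Neither the assigned nor the overlapped gene was thus the more abundant as a rule.

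*ECM1*, an extracellular matrix protein, shows the ambiguity. Its peak of 850 bp on chromosome 3 from 20965170 to 20966019 ended on the last base of *TARS2*, the mitochondrial threonyl-tRNA synthetase encoded just upstream on the same strand. A second *ECM1* peak, of 298 bp from 20965815 to 20966112, overlapped *TARS2* in 205 bp (68.8%) and ran past its listed end. *ECM1* stood at 1.49, 0.874 and 1.37 FPKM in TES5, TES6 and TES7 and *TARS2* at 16.1, 16.3 and 17.1. *TARS2* was thus the higher in every animal, with no overlap of the values. The position of the peak of 850 bp cannot tell a 3' end of *TARS2* from a 5' end of *ECM1*. In *EHBP1*, which links vesicle traffic to actin, the peak of 200 bp likewise had an edge on the 3' end of the opposite-strand *TMEM17*. In all, 4 peaks had an edge exactly on the 3' end of another listed transcript, 8 contained such an end and 4 contained the start of another transcript.

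Some of the most weakly expressed members also overlapped a neighbour. Of the 601 peaks, 41 on 39 genes had a mean below 1 FPKM, and 6 of these 41 (14.6%, 6.88% to 28.4%) overlapped another listed transcript, an interval that contains the 9.98% of all members. *C1orf158* had 0.166, 0.233 and 0.263 FPKM, and its peak of 150 bp lay wholly inside the opposite-strand gene *PRDX6*, a peroxiredoxin with 92.3, 102 and 96.5 FPKM. *SLC39A5*, a zinc importer, had 0.181, 0.115 and 0 FPKM beside 9.78, 7.92 and 7.79 for *NABP2*, which binds single-stranded DNA. *PLEKHA8*, a lipid transfer protein, had 0.0532, 0 and 0.0278 FPKM beside 7.40, 6.29 and 5.35 for *ZNRF2*, a ubiquitin ligase. In each of these pairs the gene that held the peak was near 0 and its neighbour was not. *DIO2* was the lowest of all, listed at 0 in TES5 and TES7 and at 0.0616 in TES6, and overlapped no other listed transcript. FPKM values keep no read numbers, so the depth behind such a value is unknown and a 0 may be a failed estimate.

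Genes with a divergent neighbour at their start were a small group. A listed start on the opposite strand lay within 1000 bp upstream for 24 of 542 genes (4.43%, 2.99% to 6.50%), against 2.70% of genes with a narrow 3' UTR peak (difference 1.73 points, 0.0768 to 3.90). The gene lay on the minus strand for 333 of 601 members (55.4%, 51.4% to 59.3%), for 48.9% of all peaks and for 44.6% of narrow 3' UTR peaks. By chromosome, members made up from 2.60% (chromosome 29, 4 of 154) to 12.7% (chromosome 25, 18 of 142) of the peaks of at most 1000 bp. Chromosome X held 20 of 302 (6.62%) and chromosome Y 2 of 54 (3.70%), the latter on *SHOX* and on the sex-determining gene *SRY*.

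Most genes with a narrow 5' UTR peak carried another kind of peak as well. No peak of another class or width group was listed for 156 of 542 genes (28.8%, 25.1% to 32.7%). This share was 37.9% for genes with a wide 5' UTR peak (difference -9.12 points, -14.2 to -3.94), 46.7% for genes with a narrow 3' UTR peak (-17.9 points, -22.2 to -13.4) and 54.7% for genes with a narrow exon peak (-25.9 points, -29.9 to -21.6). Many genes were in more than 1 of these groups. The order of the shares was also that of the number of peaks of each kind (601, 826, 2268 and 5190), and the part of these numbers in it was not tested. Exon peaks accompanied the members on 282 genes (52.0%), 3' UTR peaks on 167 (30.8%) and wide 5' UTR peaks on 57 (10.5%). For genes with a wide 5' UTR peak, exon peaks stood at 45.5% (difference 6.49 points, 1.01 to 11.9). Their share with a 3' UTR peak was 26.5% (4.29 points, -0.646 to 9.29).

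**Figure D3:**
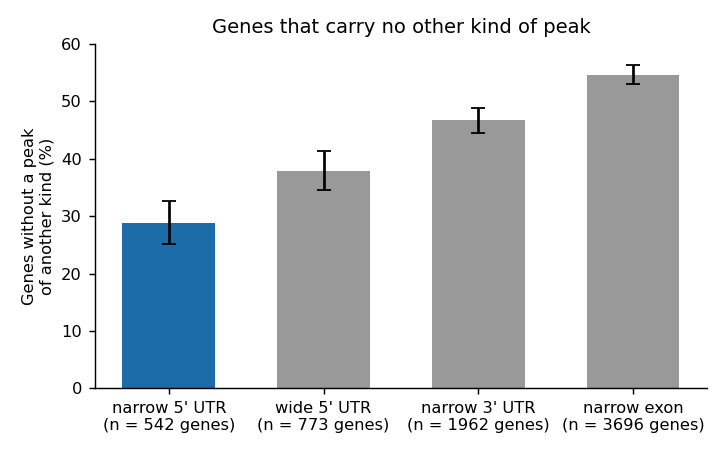
Share of genes, in percent, that carry no peak of another class or width group, for genes with a narrow 5' UTR, wide 5' UTR, narrow 3' UTR or narrow exon peak, with 95% Wilson intervals. The bars stand at 28.8%, 37.9%, 46.7% and 54.7%, in the order of the number of peaks of each kind.

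Exon and 3' UTR peaks both accompanied the member on 82 genes (15.1%), among them *DONSON*, a protein that stabilises replication forks. Its narrow 5' UTR peak covered 300 bp on chromosome 1 from 37241779 to 37242078, 796 bp downstream of the start. At the other end, 142 genes (26.2%) had a narrow 5' UTR peak as their single peak of any kind. The like share was 36.1% for genes with a wide 5' UTR peak, 41.1% for narrow 3' UTR and 40.1% for narrow exon peaks. The number of peaks of all kinds on a member gene had a median of 2 and reached 18.

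Member genes were expressed at about the level of other genes with a peak. Their median FPKM was 7.29, 7.37 and 7.63 in TES5, TES6 and TES7, and that of the 8234 genes with a peak but no narrow 5' UTR peak was 7.19, 7.30 and 7.26. On the log2(FPKM + 1) scale the difference of medians was 0.031 ± 0.028 over the 3 animals, and it changed sign to -0.090 among genes of at least 1 FPKM. Genes with a wide 5' UTR peak and no narrow one stood higher, with medians of 9.19, 9.03 and 8.99, and the members were below them by 0.26 ± 0.04 on the log2 scale (difference -0.26), in every animal. Of 541 member genes with a value, 483 (89.3%, 86.4% to 91.6%) had at least 1 FPKM in all input libraries. So did 86.8% of the 8234 genes with a peak but no narrow 5' UTR peak, and 54.4% of all 20953 genes. Peak calling needs a transcript in the libraries, so nothing about the members is read from these shares. With 3 animals a two-sided exact sign test cannot give a p below 0.25, and none was used.

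Member genes had a lower median expression where the peak lay far from the start, a comparison chosen after the data were seen. Genes whose peak reached the start had medians of 9.45, 9.41 and 9.20 FPKM in TES5, TES6 and TES7. Those with a peak over 1000 bp away had 5.64, 5.79 and 5.18. The medians of these groups, which share some genes, did not overlap. Their difference on the log2(FPKM + 1) scale was -0.66, -0.62 and -0.72, a mean of -0.67 ± 0.05. The genes themselves overlapped widely, with quartiles of the mean FPKM at 4.28 and 20.4 for start-reaching peaks and at 2.46 and 10.8 for distant ones. Genes with a peak at 1 to 1000 bp had medians of 7.29, 7.17 and 7.32. Those with a peak over 10000 bp away had 5.58, 6.25 and 5.38. The distant peaks were on longer transcripts, as given above. Among genes with a span of at least 20000 bp the difference was -0.61. This limit did not match the groups by span, and the part of span in the difference was not tested.

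The animals resembled each other across the 541 genes, with Pearson's r on log2(FPKM + 1) of 0.980 for TES5 and TES6, 0.972 for TES5 and TES7 and 0.987 for TES6 and TES7. The points here are genes, not independent replicates. The highest of the 3 values fell on TES5 in 176, on TES6 in 152 and on TES7 in 155 of the 483 genes with at least 1 FPKM throughout. The median coefficient of variation of a member gene was 10.7%.

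**Figure D4:**
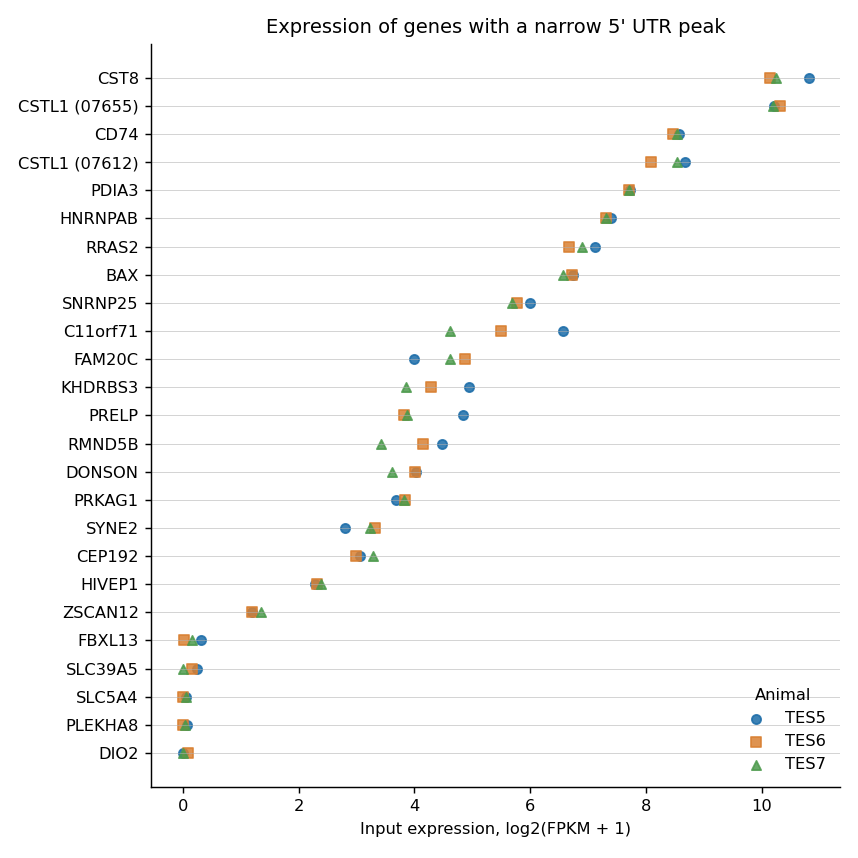
Input expression, as log2(FPKM + 1), of member genes with the highest, lowest and most variable values, the most peaks, or a place in the study's own account, with 1 point per animal (TES5 circles, TES6 squares, TES7 triangles). Among genes with a mean of at least 10 FPKM, *C11orf71* has the widest relative spread, from 94.2 FPKM in TES5 to 23.6 in TES7.

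The most abundant transcripts with a narrow 5' UTR peak were those of *CST8* and of 1 identifier of *CSTL1*. Both are cystatins, a family of cysteine protease inhibitors with members made in the testis and epididymis. *CST8* was at 1802, 1127 and 1205 FPKM in TES5, TES6 and TES7, with TES5 above the others. Its peak of 247 bp on chromosome 12 from 33910674 to 33910920 began 147 bp inside the transcript. *CSTL1* had 2 identifiers, each with a member. The first was at 1180.4, 1277 and 1175 FPKM with a peak from 33851345 to 33851641, and the second at 408, 272 and 372 FPKM with a peak from 33843423 to 33843671, all on chromosome 12. The 3 peaks thus lay within a single cluster of genes. Near-identical copies can share reads, so how the FPKM values divide among the cystatins is uncertain.

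*CD74*, the invariant chain that escorts MHC class II molecules in antigen-presenting cells, stood between the *CSTL1* identifiers by its mean, with 377, 353 and 369 FPKM and a peak of 249 bp on chromosome 8 from 67498373 to 67498621. *PDIA3* had 209.9, 208 and 209 FPKM and the smallest spread among the most abundant members, with a coefficient of variation of 0.545%. *HNRNPAB* had 167, 158 and 158 FPKM. These genes were uniform across animals, unlike *CST8*. *RRAS2*, a small GTPase, had 137, 100.5 and 118 FPKM, with values spread by 15.6%. *BAX*, which opens the mitochondrial membrane in apoptosis, had 106, 105 and 94.2 FPKM and a peak of 875 bp on chromosome 20 from 59650630 to 59651504.

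A few member genes varied between animals. *C11orf71* was at 94.2, 44.2 and 23.6 FPKM, and its peak lay wholly inside the opposite-strand gene *REXO2*, which varied little (9.21, 9.14 and 10.2). *PRELP*, a proteoglycan of the extracellular matrix, was at 27.6, 13.1 and 13.6 FPKM. *KHDRBS3*, an RNA-binding regulator of splicing, was at 29.9, 18.5 and 13.6 FPKM. In these genes TES5 was the highest. *RMND5B*, a subunit of a ubiquitin ligase, was at 21.3, 16.6 and 9.69 FPKM, again with TES5 highest. *FAM20C*, a kinase of secreted proteins, had the opposite order for this animal, with 15.0, 28.3 and 23.4 FPKM. No animal was tested as an outlier.

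Gene lists gave the functions of the member genes. Among all 8986 genes with a peak 6.03% carried a narrow 5' UTR peak, and each list is set beside this share, with nothing particular to a list read from it. Solute carriers and pumps held 24 members among 179 genes with a peak (13.4%, 9.18% to 19.2%). The most abundant was *ATP1B1*, the beta subunit of the sodium-potassium pump, with 68.3, 84.2 and 73.1 FPKM and a pair of peaks, both of 148 bp, 392 and 686 bp from the start. Metal ion carriers were the next, with the magnesium transporter *SLC41A1* at 34.4, 35.6 and 33.2 FPKM and 2 peaks, the zinc transporter of the secretory pathway *SLC39A7* at 28.6, 27.7 and 28.3, and the vesicular zinc carrier *SLC30A4* at 17.7, 21.4 and 24.2. *SLC2A4RG*, caught by its name, is a transcription factor and not a carrier. Of the 24 genes, 20 had at least 1 FPKM in every library.

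Splicing and RNA-binding genes held 14 members among 128 (10.9%, 6.63% to 17.5%), all 14 with at least 1 FPKM. *HNRNPAB* led them, and the CCR4-NOT subunits *CNOT9* (68.3, 72.9 and 76.7 FPKM) and *CNOT7* (20.4, 32.0 and 27.0 FPKM), which shorten poly(A) tails, came next. The *CNOT9* peak reached the start and lay inside the opposite-strand gene *USP37*, at 7.61, 7.65 and 8.20 FPKM. *PRPF31*, a spliceosome protein, had 21.9, 18.8 and 17.6 FPKM. Zinc finger proteins held as many members as the carriers, 24, but among 333 genes (7.21%, 4.89% to 10.5%). Their means ran from 0.627 to 15.7 FPKM, and 21 of the 24 had at least 1 FPKM in every library.

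**Figure D5:**
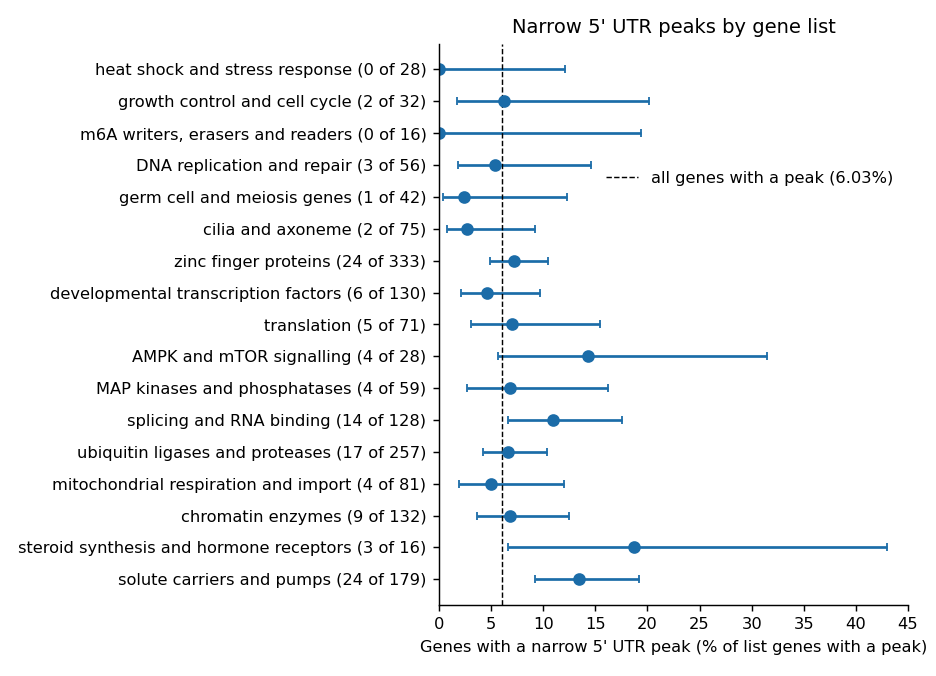
Share of each gene list's genes with a peak that carry a narrow 5' UTR peak, in percent with 95% Wilson intervals, and the share of all genes with a peak as a dashed line at 6.03%. The shares run from 0 of 28 for heat shock and stress genes to 3 of 16 for steroid synthesis and hormone receptor genes.

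Energy sensing and steroid signalling contributed few genes from short lists. AMPK and mTOR signalling had 4 of 28 (14.3%, 5.70% to 31.5%). *PRKAA2*, the alpha-2 catalytic subunit of AMPK, was the most abundant and the most variable of them at 35.1, 39.9 and 59.2 FPKM, and its peak of 300 bp began 50 bp from the start. *PRKAG1* was at 11.8, 13.3 and 13.1 FPKM, and the mTOR inhibitor *TSC2* at 5.44, 5.44 and 5.49. Steroid synthesis and hormone receptors had 3 of 16 (18.8%, 6.59% to 43.0%). *SQLE*, squalene epoxidase of cholesterol synthesis, was at 24.9, 18.1 and 19.0 FPKM. *NR0B1*, a nuclear receptor that represses steroid synthesis, was at 14.2, 12.1 and 12.3 FPKM, with a peak of 636 bp on chromosome X from 123450848 to 123451483.

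The lists of germ cell genes and of cilia genes held few members, too few to set them apart from the background. The GO term spermatogenesis was listed for 9 of 477 member genes (1.89%) and for 1.30% of others. The difference of 0.588 points (-0.347 to 2.26) did not set the members apart either. Germ cell and meiosis genes had 1 of 42 (2.38%, 0.422% to 12.3%), namely *CATSPERG*, a subunit of the sperm calcium channel, at 6.28, 5.74 and 3.48 FPKM, whose peak of 251 bp began exactly on the first base. Cilia and axoneme genes had 2 of 75 (2.67%, 0.734% to 9.21%), the intraflagellar transport gene *IFT52* at 14.2, 11.7 and 8.02 FPKM and the dynein heavy chain gene *DNAH11* at 3.48, 5.07 and 4.13. Both intervals contain the background of 6.03%. DNA replication and repair had 3 of 56 (5.36%), *DONSON* at 15.4, 15.2 and 11.2 FPKM, the replicative helicase subunit *CDC45* at 7.79, 7.16 and 7.49 and *DCLRE1A* at 3.21, 3.26 and 2.95. *DONSON*, *DCLRE1A*, *CATSPERG* and *IFT52* were lowest in TES7, *CDC45* in TES6 and *DNAH11* in TES5.

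The m6A machinery itself had no narrow 5' UTR peak on any of its 16 genes with a peak, which allows a share of up to 18.8%, and heat shock and stress genes had none on 28, which allows up to 10.7%. Growth control and cell cycle genes had 2 of 32 (6.25%), the cyclin-dependent kinase inhibitor *CDKN1B* at 19.9, 19.7 and 20.7 FPKM and *CDK6* at 4.53, 4.47 and 5.71. Translation had 5 of 71 (7.04%), led by the initiation helicase *EIF4A1* at 31.5, 24.2 and 28.0 FPKM and the release factor *GSPT1* at 25.0, 23.4 and 23.4. MAP kinases and phosphatases had 4 of 59 (6.78%), with the phosphatase *DUSP16* at 18.8, 19.7 and 19.8 FPKM and *DUSP6* at 7.98, 5.89 and 5.25. These shares were close to the background.

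Chromatin enzymes had 9 of 132 (6.82%), led by the histone demethylase *KDM1A* at 44.6, 39.3 and 38.3 FPKM, with a peak of 201 bp on chromosome 2 from 7259773 to 7259973. *SETD3*, second by expression at 32.3, 28.4 and 26.8 FPKM, is known as an actin methyltransferase and entered by its name. Ubiquitin ligases and proteases had 17 of 257 (6.61%), with the conjugating enzymes *UBE2Q1* (66.4, 72.8 and 68.1 FPKM) and *UBE2E3* (46.5, 44.3 and 44.1 FPKM) on top. Developmental transcription factors had 6 of 130 (4.62%) and mitochondrial genes 4 of 81 (4.94%). Of the former, *ID1* was at 29.5, 29.7 and 30.3 FPKM and the other 5 had means below 5 FPKM. Of the 27 identifiers that match genes named in the study, 2 (7.41%) carried a member, *DONSON* and *SYNE2*, the latter at 6.01, 9.01 and 8.39 FPKM.

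The GO terms that the peak list gives for each gene showed no separation of the members from other genes with a peak. For each of 25 terms, and for the share with any term, the difference had an interval that included 0. RNA binding was listed for 7.76% of 477 member genes with a term and 5.80% of 7467 others (difference 1.96 points, -0.192 to 4.76), and spermatogenesis for 1.89% and 1.30% (0.588 points, -0.347 to 2.26). RNA-directed DNA polymerase activity, which belongs to transposable elements, was listed for 17.0% and 16.7%, so the terms do not all describe the named gene.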

How the data were processed

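Testis RNA of 3 cattle-yaks was sequenced as m6A IP and input libraries from a stranded kit. Reads were trimmed with Trimmomatic and aligned with HISAT2 2.0.4, per the submitters' processing notes, to LU_Bosgru_v3.0 (Ensembl release 99), after removal of ribosomal RNA reads with SortMeRNA. The authors called peaks with MeTDiff from IP against input, annotated them with ChIPseeker and deposited 1 list without scores. The study's text describes calling in each sample, and how the list for the group was formed is not given in the sources used here. FPKM values for 20953 genes in the 3 input libraries were computed and deposited by the authors, with a program not given in the sources used here. FPKM values are not counts, the depth behind them is unknown, and no count model was used. No column of other samples was present.

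Coordinates are 1-based as listed, and peak widths are genomic spans, introns included. Peaks were joined to FPKM values by gene identifier, which gave values for 600 of the 601 peaks. Shares carry Wilson 95% intervals and differences Newcombe 95% intervals, which cover counting error in these lists only. A share of 0 was given the limit that 3 counts allow. Differences in expression are differences of medians on log2(FPKM + 1), given per animal with the SD over animals. The position and overlap steps were tested on simulated data. The software was Python 3.11.15 with SciPy 1.17.1, pandas 2.3.3, numpy 2.4.6 and, for plots, matplotlib 3.10.9.

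The members and the 18 gene lists were chosen with earlier results of these data known. Named were the 5 genes with the most members, the 10 highest and the 5 lowest by mean FPKM, the 5 most variable at a mean of at least 10 FPKM, up to 6 per list by mean FPKM, those at the width limits, those whose peak ends on another transcript's end, and those named in the study. Other genes (*F9*, *C1orf158*, *SHOX*, *SRY* and the genes overlapped) were chosen after their values were seen. Some genes that the rule names are not reported here. Alternatives were other width limits, merged peaks, genes by symbol, other FPKM minimums and pseudocounts, rescaled libraries and each animal left out. A genome sequence of this build was not used here, so sequences and the RRACH motif were not analysed.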

Additional observations from a re-analysis of the deposited data

How the results depend on the processing

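No paired analysis was possible because the peaks form 1 list for the group and expression was given for input only, so IP and input could not be set against each other in an animal. No stricter threshold on fold enrichment could be run, since the list has no score. The number of members was 481 at a limit of 500 bp, 715 at 2000 bp, 581 after merging and 533 on genes of at least 1 FPKM, all within 1.5 times 601. On genes of at least 1 FPKM, the 5' UTR share of peaks of at most 1000 bp was 8.05%, and the log2 difference between members and other genes with a peak was -0.090, a change of sign from 0.031. By symbol, overlap with another gene was 7.32% and genes with a 3' UTR peak were 36.7%. Counting only 3' UTR peaks of at most 1000 bp gave 21.6%. The share of expressed genes was 96.5% at a minimum of 0.5 FPKM and 92.8% by the mean. The comparisons of distant with start-reaching genes and of genes with no other kind of peak were themselves chosen after seeing the data, as were 3 further checks that moved a value. Without peaks that overlap another gene's transcript 24.4% reached the start, genes with no other kind of peak were 22.2% by symbol, and the difference between distant and start-reaching genes was -0.75 with a pseudocount of 0.1. In each case the cause was not tested. With each animal left out in turn, expressed genes ranged from 89.8% to 90.8%, the difference from other genes with a peak from 0.015 to 0.040, and that of distant peaks from -0.69 to -0.64. All 380 alternative means of the 95 named genes stayed within 1 SD, which leaving out 1 of 3 animals cannot exceed. The absence of read numbers limits every statement on weak genes.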
